A study of Mus musculus with 8 samples.

Results

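The cathepsins described here are Ctsh, Ctsl, Ctsz, Ctsb, Ctsd and Ctsc, 6 genes for proteases of the lysosome. They were listed by symbol and chosen by measured values of these arrays, the ratios between the cell lines, which earlier results had given as negative for Ctsh and Ctsl. Of the 6 genes, 5 had a probe annotated to their symbol, with 7 probes in all, among 16255 features (genes or unnamed probes) of which 9930 carried a gene symbol. Ctsc had no probe annotated to its symbol and was not analysed here. The study hybridised HM-1 against R1, 2 lines of mouse embryonic stem cells, on each of 8 cDNA microarrays with 2 colours. On 4 arrays both lines had been given nocodazole, which takes microtubules apart and so arrests cells in mitosis, and on 4 arrays both were untreated. HM-1 carried the dye Cy5 on nocodazole replicates 1, 2 and 3 and on untreated replicates 1 and 2, and Cy3 on nocodazole replicate 4 and untreated replicates 3 and 4. The labels give neither the dose and duration of nocodazole nor whether replicates came from separate cultures. HM-1 lacks Hprt function, as general knowledge of this line has it, and each group is a ratio between these 2 lines alone.

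Cathepsins are made as inactive precursors, tagged with mannose 6-phosphate in the Golgi, carried to endosomes and lysosomes and activated there at acid pH. Ctsh, Ctsl, Ctsz, Ctsb and Ctsc are cysteine proteases of the papain family, and Ctsd is an aspartic protease. Cystatins are natural protein inhibitors of these cysteine proteases. Transcription factors of the TFEB family switch on many lysosomal genes through elements built on the letters CACGTG. In the early mouse embryo, lysosomes are prominent in endoderm, which takes up and digests maternal protein.

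The promoters are shown for Ctsz, whose ratios moved with those of Ctsl from array to array, and for Ctsd, whose ratios did not. For Ctsl the promoter window in the sequence table lies inside the span of its own RefSeq gene record, so it is not shown. Each sequence is the 250 bases before the start of the gene in RefSeq (build GRCm38.p6), written 5′ to 3′ on the gene's strand, which is the minus strand for both. Capitals mark each CACGTG. Ctsz is shown at chr2:174439040-174439289 and Ctsd at chr7:142387828-142388077.
Ctsz: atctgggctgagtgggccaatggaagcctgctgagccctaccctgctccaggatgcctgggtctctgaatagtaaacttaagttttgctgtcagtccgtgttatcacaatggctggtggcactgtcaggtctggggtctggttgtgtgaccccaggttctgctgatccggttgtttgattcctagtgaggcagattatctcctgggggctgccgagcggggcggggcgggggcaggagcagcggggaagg
Ctsd: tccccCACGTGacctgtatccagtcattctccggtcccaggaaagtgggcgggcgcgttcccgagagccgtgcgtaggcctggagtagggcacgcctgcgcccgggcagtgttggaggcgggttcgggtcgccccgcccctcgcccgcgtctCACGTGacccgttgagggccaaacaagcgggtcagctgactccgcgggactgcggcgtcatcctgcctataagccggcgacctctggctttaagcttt
The Ctsd window held CACGTG 2 times, beginning 245 and 98 bases before the start, and the second lies inside the longer TCACGTGA. The Ctsz window held neither. Of the windows not shown, that of Ctsl held CACGTG 1 time and that of Ctsc held neither motif. No link between motif and ratios was tested. Both motifs read the same on both strands. Of 27025 mouse promoter windows of this length, 6.05% held CACGTG and 0.803% held TCACGTGA. A match describes letters in the window and nothing about binding.

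All values are log2 ratios between the lines with the sign of the deposited table, centred so that the median of each array is 0. The numerator of the ratios is unsettled, so no line is called higher, and "negative" means only below the array's median in the table's sign. Arrays held between 17928 and 19445 values, and the standard deviation of an array's ratios was 0.78 to 0.91 on 7 arrays and 1.28 on nocodazole replicate 3. In the table's signs, the correlation over features between an array and the mean of its group's other arrays lay between -0.14 and 0.04. In these signs the arrays thus share little over all features. With the Cy3 arrays turned this correlation was not computed. No intensities were used, so neither the level of a cathepsin nor that of a stem cell marker could be read, and the labelled cell type could not be checked by level. Of the 55 values of the cathepsin probes, 7 (12.7%) fell on a ratio of small whole numbers (up to 10, tolerance 0.0015), as very dim spots do, against 14.6% of all values in the table. None of the 55 was a code for a denominator of 0.

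Ctsh, an aminopeptidase that also cuts within proteins, was represented by 1 probe. Its ratios were 0.68, -0.80, -0.79 and -0.64 on nocodazole replicates 1 to 4, and -0.68, -0.81, -0.64 and -0.53 on untreated replicates 1 to 4. It was negative on all untreated arrays and on 3 nocodazole arrays, and positive on nocodazole replicate 1, which lay above all others. The mean was -0.38 ± 0.72 with nocodazole and -0.66 ± 0.12 untreated (SD, n = 4 each). Without nocodazole replicate 1 the nocodazole mean was -0.74 ± 0.09 (SD, n = 3), a ratio of 1.67-fold in size, against 1.58-fold untreated. These ratios chose the gene and are given as a description.

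Ctsl, the major endopeptidase of this family in many mouse cells, was also represented by 1 probe. Its ratios were 0.68, -0.69, -0.64 and -0.84 on nocodazole replicates 1 to 4, and -0.34, -0.56, -0.90 and -1.15 on untreated replicates 1 to 4. Signs were those of Ctsh on every array, with nocodazole replicate 1 again the only positive one, but the untreated values were more spread. The mean was -0.37 ± 0.71 with nocodazole and -0.74 ± 0.36 untreated (SD, n = 4 each). Without nocodazole replicate 1 the nocodazole mean was -0.73 ± 0.10 (SD, n = 3).

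Ctsz, a carboxypeptidase also called cathepsin X, had ratios of 0.74, -0.37, -0.47 and -0.63 on nocodazole replicates 1 to 4 and of -0.30, -0.57, -0.64 and -0.71 on untreated replicates 1 to 4. It shared the signs of Ctsh and Ctsl on all 8 arrays. The mean was -0.18 ± 0.63 with nocodazole and -0.55 ± 0.18 untreated (SD, n = 4 each), and -0.49 ± 0.13 with nocodazole without replicate 1 (SD, n = 3).

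Ctsb, which acts both as endopeptidase and as peptidyl-dipeptidase, had 2 probes that differed. Probe 15354 had ratios of 0.25, -0.24, -0.28 and -0.17 on nocodazole replicates 1 to 4, and of -0.05, -0.20, -0.33 and -0.38 on untreated replicates 1 to 4. Its signs were those of Ctsh, Ctsl and Ctsz on every array, at smaller sizes, with means of -0.11 ± 0.25 with nocodazole and -0.24 ± 0.15 untreated (SD, n = 4 each). Probe 4211 had -0.33, no value, -0.68 and 0.70 on nocodazole replicates 1 to 4, and 0.06, 0.78, 0.39 and -0.60 on untreated replicates 1 to 4. This probe changed sign within both groups, and the means of -0.11 ± 0.72 with nocodazole (SD, n = 3) and 0.16 ± 0.58 untreated (SD, n = 4) were smaller than their spread. Averaged over probes, Ctsb was at -0.13 ± 0.32 with nocodazole and -0.041 ± 0.33 untreated (SD, n = 4 each), with nocodazole replicate 2 resting on probe 15354 alone.

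Ctsd, the main aspartic protease of the lysosome, had 2 probes with values of both signs. Probe 11065 had ratios of 0.73, 0.54, -0.01 and -0.28 on nocodazole replicates 1 to 4, and of -0.26, -0.52, -0.76 and 0.37 on untreated replicates 1 to 4. Probe 16191 had 0.10, -0.05, 0.69 and -0.30 on nocodazole replicates 1 to 4, and 0.52, -0.68, 2.32 and -0.84 on untreated replicates 1 to 4. Both probes held positive and negative values in each group, and on untreated replicate 3 they had opposite signs, at -0.76 and 2.32. The mean over both probes was 0.18 ± 0.32 with nocodazole and 0.02 ± 0.59 untreated (SD, n = 4 each), with overlapping groups.

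**Figure D1:**
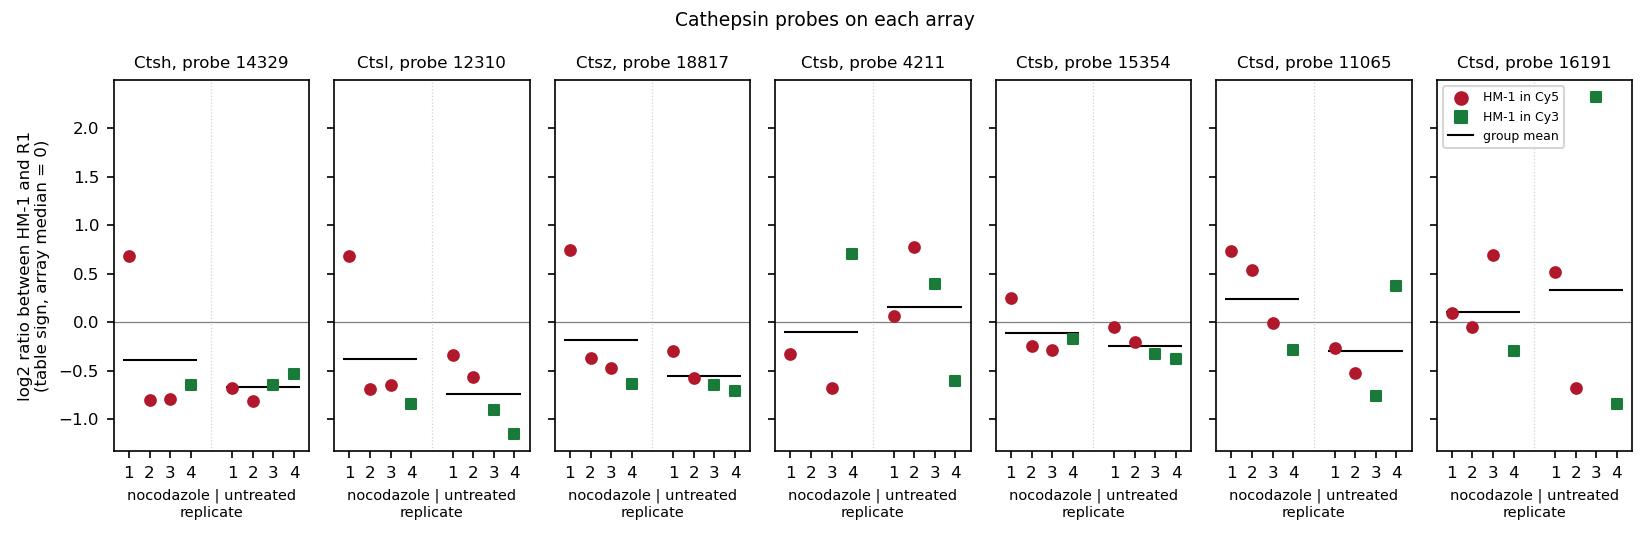
Log2 ratio between HM-1 and R1 (table sign, array median at 0) of each of the 7 cathepsin probes on nocodazole replicates 1 to 4 (left in each panel) and untreated replicates 1 to 4 (right), with lines at group means and colour and shape for the dye of HM-1. Ctsh, Ctsl, Ctsz and Ctsb probe 15354 are positive on nocodazole replicate 1 and negative on the 7 other arrays, while the other probes of Ctsb and Ctsd change sign within both groups.

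Set in order of the untreated ratio in the table's signs, lowest first, the members ran Ctsl, Ctsh, Ctsz, Ctsb and Ctsd. With the 3 arrays that have HM-1 in Cy3 turned, the order was Ctsd (-0.26 ± 0.51), Ctsh (-0.08 ± 0.77), Ctsz (0.12 ± 0.65), Ctsb (0.19 ± 0.25) and Ctsl (0.28 ± 0.86; SD, n = 4 each), with each gap smaller than the SDs beside it. In the table's signs the first 3 means lay within 1 SD of Ctsl (0.36) of each other and are not told apart by their spread, and Ctsb and Ctsd are likewise not told apart. The order concerns ratios between the lines, not levels. In the same signs the SD of Ctsh over the untreated arrays was 0.12, and 10.8% of tested features had a smaller one, against a median of 0.30. For Ctsz the SD was 0.18 (23.8% smaller), for Ctsl 0.36 (57.5%), for Ctsb 0.33 (53.6%) and for Ctsd 0.59 (75.1%). Over nocodazole replicates 2 to 4 the SD was 0.09 for Ctsh, 0.10 for Ctsl and 0.13 for Ctsz, against a median of 0.28 over all features. Over all 4 nocodazole arrays the SD was 0.72 for Ctsh, 0.71 for Ctsl and 0.63 for Ctsz, against 0.32 for both Ctsb and Ctsd, so small spreads of the first 3 hold only with nocodazole replicate 1 left out, the array on which they lay apart.

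Over all 4 nocodazole arrays, 0 of the 5 measured cathepsins were negative throughout, where 4.19% of features with 4 values were. Over the 4 untreated arrays 3 of 5 were (Ctsh, Ctsl and Ctsz), where 7.22% of features were. With the Cy3 arrays turned, 1 of 5 (Ctsb) was negative on all 4 nocodazole arrays and 0 of 5 on all 4 untreated arrays, against 6.94% and 9.8% of features, so these counts rest on the table's signs. These same 3 genes, and 4 of the 7 probes, were negative on the 7 other arrays and positive on nocodazole replicate 1, a pattern held by 2.6% of the 11681 features with 8 values. Of the 333 features negative on those 7 arrays, 304 were positive on nocodazole replicate 1. The rule used these ratios, so nothing is read from the member counts. With bulk RNA, a difference in the share of cells of some type cannot be told apart from a difference in RNA per cell.

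The change of the line ratio with nocodazole was not itself used to choose the genes and was tested, though it is made from the group ratios that the rule used. It compares the ratio between lines in treated cells with that in untreated cells, and gives no effect of the drug within a line. For Ctsh the change was 0.27 on the log2 scale (SE 0.38, 95% interval -0.63 to 1.17), and the groups overlapped. Without nocodazole replicate 1 the value was -0.05 (SE 0.12, interval -0.35 to 0.25). For Ctsl the change was 0.21 (SE 0.34, interval -0.60 to 1.03), and -0.06 (SE 0.16, interval -0.46 to 0.35) without that array. For Ctsz it was 0.27 (SE 0.31, interval -0.46 to 1.01), and 0.03 (SE 0.13, interval -0.30 to 0.36) without it. The direction for Ctsh and Ctsl therefore turned on 1 array, and none of these 3 intervals left out 0.

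Ctsb had a change of -0.08 (SE 0.25, interval -0.68 to 0.52), or -0.11 (SE 0.28) without nocodazole replicate 1. Ctsd had a change of 0.16 (SE 0.35, interval -0.68 to 1.01), or 0.09 (SE 0.39) without it. In limma, with p-values adjusted by Benjamini-Hochberg over 14015 features, 0 of 5 cathepsins passed 0.05, with an adjusted p of 0.997 for each and unadjusted p of 0.402 to 0.752. Without nocodazole replicate 1 the adjusted p were 0.991 to 0.993. Over all features 0% passed, and 3.33% (467 features) had an unadjusted p under 0.05. A p above the threshold does not show that the ratio stayed the same. On all 8 arrays the intervals of Ctsh, Ctsl and Ctsz leave room for changes of up to 1.17, 1.03 and 1.01. Without nocodazole replicate 1 they reach 0.35, 0.46 and 0.36 in size. That array was singled out because these genes lay apart on it, so the narrower bounds can understate the uncertainty.

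**Figure D2:**
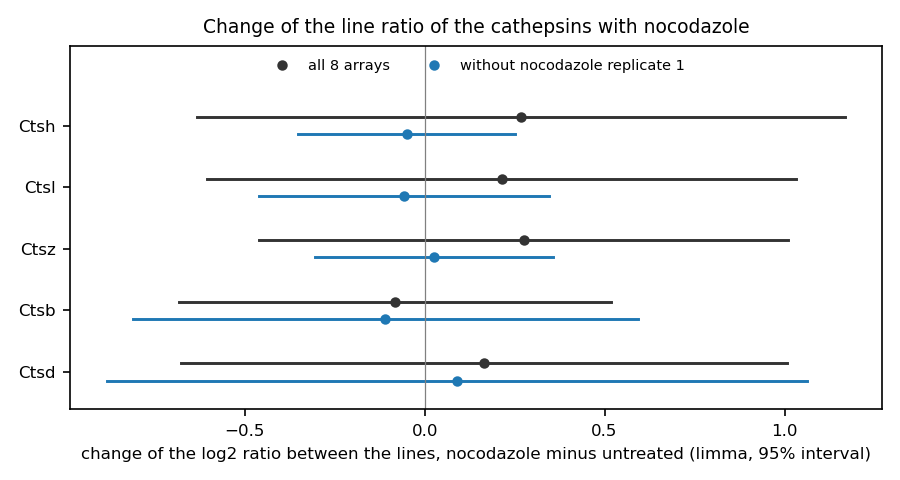
Change of the log2 ratio between the lines, nocodazole minus untreated, for the 5 measured cathepsins, as points with 95% intervals from limma, on all 8 arrays (dark) and without nocodazole replicate 1 (blue). All 10 intervals span 0, and those of Ctsh, Ctsl and Ctsz are narrower without that array.

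Within the arrays with HM-1 in Cy5, Ctsh differed by 0.45 between nocodazole and untreated, and within those with HM-1 in Cy3 by -0.06. Ctsz differed by 0.40 and 0.05, and Ctsl by 0.23 and 0.18. For Ctsb (-0.40 and 0.49) and Ctsd (0.57 and -0.57) the sign was opposite in the dye classes, in the table's signs. Turning the Cy3 arrays reverses each Cy3 difference. The classes then share a sign for Ctsb, Ctsd and Ctsh and have opposite signs for Ctsz and Ctsl. Nocodazole replicate 1 lies in the Cy5 class, and the Cy3 class holds 1 nocodazole array, so its values have no spread for that group.

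The dye label was not used by the rule, though the ratios compared by it were. Leaving out nocodazole replicate 1, Ctsl ran between -0.69 and -0.34 on the 4 arrays with HM-1 in Cy5, and between -1.15 and -0.84 on the 3 with HM-1 in Cy3. Ctsz ran between -0.57 and -0.30 in Cy5, and between -0.71 and -0.63 in Cy3. Ctsh ran the other way, between -0.81 and -0.68 in Cy5 and between -0.64 and -0.53 in Cy3. For 3 of 5 cathepsins the dye classes thus did not overlap on these 7 arrays, where 14.2% of features had no overlap, a comparison made after the values were seen.

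By the dye term of the limma fit, Cy5 minus Cy3, Ctsl was at 0.59 (SE 0.35, adjusted p = 0.643), Ctsz at 0.39 (SE 0.32, adjusted p = 0.738) and Ctsh at 0.05 (SE 0.39, adjusted p = 0.977). Without nocodazole replicate 1 the same terms were 0.41 (SE 0.16, adjusted p = 0.602) for Ctsl, 0.22 (SE 0.13, adjusted p = 0.653) for Ctsz and -0.16 (SE 0.12, adjusted p = 0.706) for Ctsh. None of the 5 passed in either fit, and Ctsl without that array had an unadjusted p of 0.0469. Over all features the dye term was called for 0%, and 9.16% (1284 features) had an unadjusted p under 0.05. Where ratios ran by dye and not by line, the 3 arrays with HM-1 in Cy3 would need turning. Turned, the mean of Ctsh was -0.07 ± 0.84 with nocodazole and -0.08 ± 0.77 untreated (SD, n = 4 each), those of Ctsl were 0.05 and 0.28, and those of Ctsz 0.13 and 0.12, so the negative group means rest on the table's signs.

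**Figure D3:**
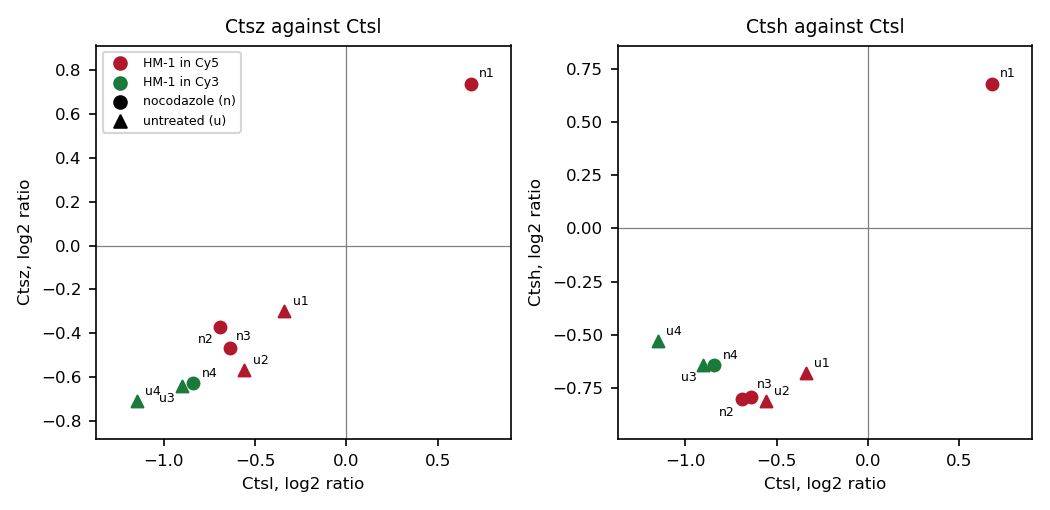
Log2 ratio of Ctsz (left) and of Ctsh (right) against that of Ctsl on each of the 8 arrays, labelled n for nocodazole and u for untreated with the replicate number, with colour for the dye of HM-1. Nocodazole replicate 1 stands alone at the upper right in both panels. Among the other arrays, in the table's signs, Ctsz follows Ctsl (r = 0.847) and Ctsh runs against it (r = -0.688).

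As a description over arrays, which share dyes and treatment, Ctsz and Ctsl had a Pearson r of 0.97 over 8 arrays and of 0.847 over the 7 without nocodazole replicate 1. Ctsh and Ctsl had an r of 0.825 over 8 arrays and of -0.688 over 7, and Ctsh and Ctsz had 0.902 and -0.597. In the table's signs the likeness of Ctsh to Ctsl and Ctsz therefore rested on nocodazole replicate 1. Turning the Cy3 arrays flips these genes together on those arrays, so their r could change in size and sign. With the Cy3 arrays turned no r was computed, and the r of other genes below are in the table's signs too. Ctsd had an r of 0.287 with Ctsh over 8 arrays, and Ctsb 0.03.

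Among 7487 other named genes with 8 values, the pattern most like Ctsh was that of Lad1, a basement membrane filament protein, at r = 0.988, or 0.856 without nocodazole replicate 1. It was followed by Mdga1 (0.985), the citrate transporter Slc13a5 (0.983), the sulfotransferase Chst10 (0.981) and the matrix protein Thbs1 (0.980), which had r of 0.512 to 0.651 without that array. The pattern most like Ctsl was that of Itgb1, an integrin subunit, at r = 0.991, or 0.958 without nocodazole replicate 1. Stat2 (0.990), Gsn (0.989), Ubap2l (0.987) and Colgalt1 (0.986) followed, with r of 0.931 to 0.950 without that array. The nearest cathepsin to Ctsl was Ctsz, at rank 15, and the nearest to Ctsh was Ctsz, at rank 73, with Ctsl at rank 167.

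Other cathepsins were measured for 6 of 17 listed genes, and 4 had enough values to test. Ctsa, a carboxypeptidase that also shields lysosomal glycosidases, had 0.43, -0.21, -0.48 and -0.15 on nocodazole replicates 1 to 4 and 0.05, 0.01, -0.26 and -0.41 on untreated replicates 1 to 4. It was positive on nocodazole replicate 1 and on 2 untreated arrays, with means of -0.10 ± 0.38 with nocodazole and -0.15 ± 0.22 untreated (SD, n = 4 each). Ctsf was at -0.26 ± 0.65 with nocodazole and -0.01 ± 0.14 untreated, Ctsw at -0.45 ± 0.98 and 0.23 ± 0.55, and Ctsk at 0.42 ± 1.56 and -0.29 ± 1.61 (SD, n = 4 each). Ctss, of antigen-presenting cells, had values on 4 arrays, -1.44 and -2.62 with nocodazole and -0.66 and -1.22 untreated, and Ctse on 3, -0.58 with nocodazole and 0.53 and 0.78 untreated, and neither was tested. The median over the 5 members was -0.18 with nocodazole and -0.55 untreated, against -0.18 and -0.08 over the 4 other cathepsins, with 0 of 4 called for the change (adjusted p 0.997 to 0.999).

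Of 18 listed inhibitors 7 were measured and 6 tested. Cstb, the cytosolic cystatin B that blocks Ctsh, Ctsl and Ctsb, had 0.38, -0.14, -0.12 and -0.19 on nocodazole replicates 1 to 4 and 0.01, 0.02, -0.37 and -0.86 on untreated replicates 1 to 4. Its nocodazole signs were those of Ctsh and Ctsl, but its untreated signs were mixed. Cst3, the secreted cystatin C, had 0.31, -0.14, -0.22 and 0.81 on nocodazole replicates 1 to 4 and -0.46, -0.37, 0.01 and 0.71 on untreated replicates 1 to 4, with a change of 0.42 (SE 0.21, unadjusted p = 0.093). Cst6 was at 0.03 ± 0.23 with nocodazole and 0.10 ± 0.14 untreated (SD, n = 4 each). Cst7, Cst9, Cst12 and Ctla2a each had 3 values with nocodazole, and the SD reached 2.95 in Cst12 untreated. Of the 6 tested, 0 were called for the change, and the median was 0.11 with nocodazole and -0.10 untreated.

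The remaining lysosomal lists are given by counts and medians, and 0 members of any were called for the change. Over all 14015 features tested, 51.4% had a negative mean with nocodazole and 50.2% untreated. The genes named as lowest and highest are those among members with a value on all 8 arrays, and genes with fewer values can lie outside them, such as Sort1 at -1.37 over 7 arrays. Of 27 tested hydrolases 17 had a negative mean with nocodazole and 16 untreated, with a median of -0.03 in both groups, and means over 8 arrays, where all 8 had a value, ran from Pla2g15 (-0.22) and Arsa (-0.19) to Arsg (0.19) and Lipa (0.31). Of 17 membrane proteins 14 were negative with nocodazole and 6 untreated (medians -0.12 and 0.03), from Cd68 (-0.22) and Pip4p1 (-0.15) to Laptm4b (0.09) and Scarb2 (0.13). Of 16 subunits of the vacuolar ATPase, which acidifies the lysosome, 7 were negative with nocodazole and 10 untreated (medians 0.01 and -0.01), from Atp6v0e (-0.25) and Atp6v1a (-0.12) to Atp6v0a1 (0.18) and Atp6v1e2 (0.44). Of 22 genes of mannose 6-phosphate tagging and sorting 16 were negative with nocodazole and 13 untreated (medians -0.28 and -0.05), and, with 8 values, from Cltc (-0.62) and Nagpa (-0.28) to Ap3b1 (0.08) and Clta (0.39). Of 8 regulators 2 were negative with nocodazole and 4 untreated (medians 0.11 and -0.04), from Rragc (-0.52) and Mtor (-0.12) to Rptor (0.38) and Zkscan3 (0.98). The sign pattern of Ctsh, Ctsl and Ctsz over the 8 arrays was held by Cd68 and Atp6v0e and by 0 of the tested hydrolases, sorting genes and regulators. Of features with 8 values, 2.6% held it. Over all features tested the median was -0.006 with nocodazole and -0.00075 untreated.

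Markers of other cells that express cathepsins were read beside these values. The lists were chosen with earlier results of these data known, so their counts are only a description. Of the 11681 features with 8 values, 2.6% had the sign pattern of Ctsh, Ctsl and Ctsz. Of 17 tested markers of primitive and parietal endoderm, 4 (Dab2, Sparc, Serpinh1 and Pth1r) had the sign pattern of Ctsh, Ctsl and Ctsz, and the list median was -0.24 with nocodazole, -0.69 without nocodazole replicate 1, and -0.29 untreated. Dab2 was at -0.46 ± 1.17 with nocodazole and -1.03 ± 0.13 untreated, and Sparc at -0.59 ± 1.22 and -0.80 ± 0.15 (SD, n = 4 each), while Hnf4a (0.03) and Amn (0.11) had the highest means among members with 8 values. Of 20 feeder fibroblast markers 3 (Thbs1, S100a4 and Thy1) had that pattern, with medians of -0.13 with nocodazole and -0.12 untreated, and means, among those with 8 values, from Thbs1 (-0.47) and S100a4 (-0.46) to Col6a2 (0.08) and Lox (0.29). None of 10 macrophage markers had it (medians 0.05 with nocodazole and 0.03 untreated), and among those with 8 values the means ran from Mrc1 (-0.30) and Aif1 (-0.15) to Cd52 (0.11) and Fcer1g (0.24), while C1qc (-0.79) and Mpeg1 (0.58), with 7 values each, lay outside. None of 11 markers of undifferentiated stem cells had it (medians 0.05 with nocodazole and 0.17 untreated), and, with 8 values, from Dnmt3l (-0.19) and Sall4 (-0.006) to Klf5 (0.24) and Lefty1 (0.43). The part of any such cells in the ratios of Ctsh, Ctsl and Ctsz was not tested.

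**Figure D4:**
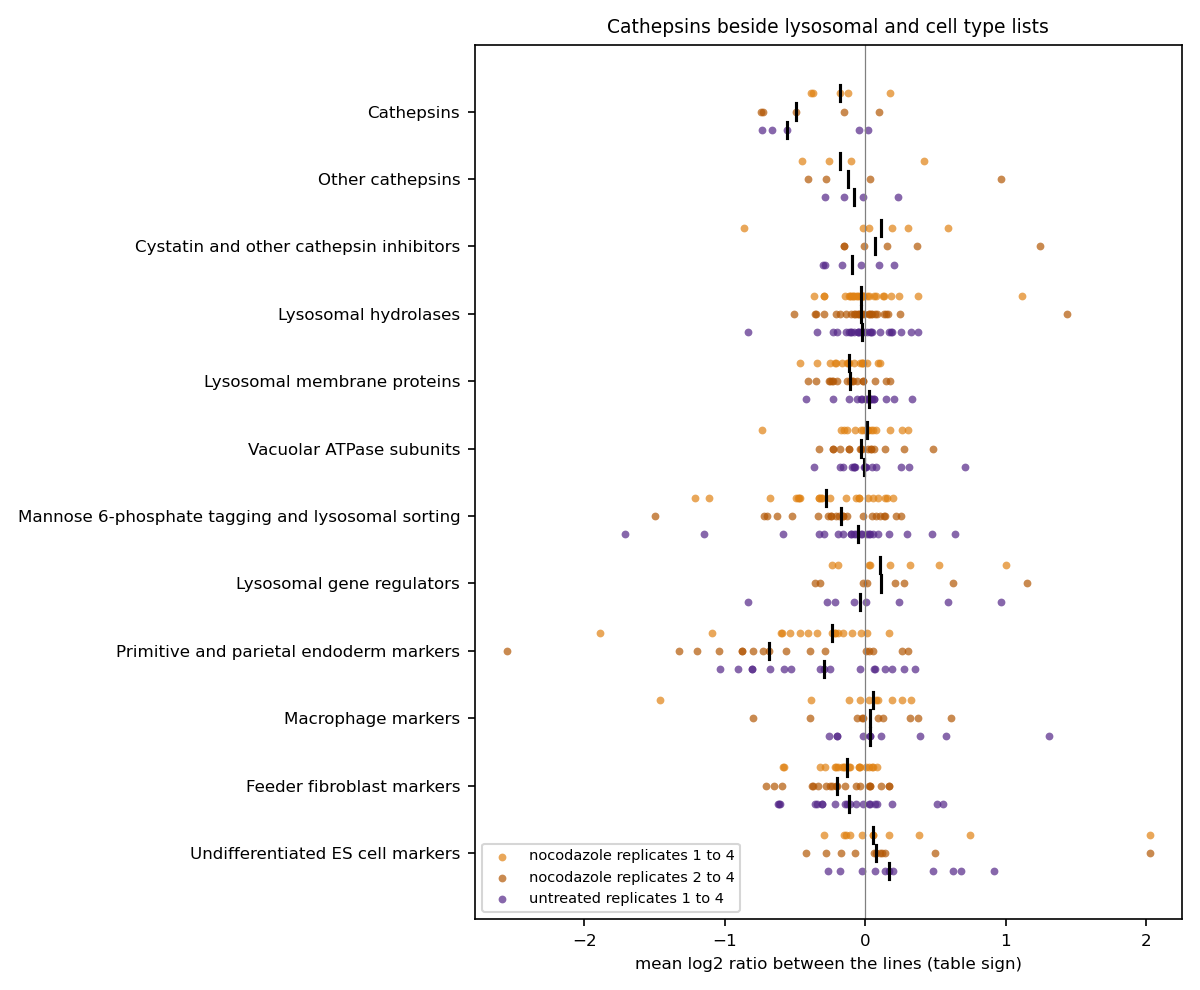
Mean log2 ratio between the lines (table sign) of each tested gene in the cathepsin, lysosomal and cell type lists, over nocodazole replicates 1 to 4, nocodazole replicates 2 to 4 and untreated replicates 1 to 4, with black bars at list medians. The cathepsin medians are -0.18, -0.49 and -0.55, and those of the hydrolases -0.03 in each of the 3 sets.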

How the data were processed

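Values are those of the table the authors deposited, 1 log2 ratio per probe and array; their size and sign show the log2 scale. For direction, background correction and normalization the labels and table give nothing. The labels' protocols mention organs and a pool from control animals, which the channel labels do not match, and the design text speaks of a dye swap on 50% of the arrays, where the labels swap 3 of 8. Ratios with a denominator of 0, coded as 100000 (16.6 on the log2 scale before an array offset), were set to missing, 74 to 203 per array. Each array was centred on its median, from -0.19 to 0.12 as deposited.

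The platform annotation gave 1 symbol to 14030 of 20355 probes, several to 5 and none to 6320, and 13994 matched RefSeq (GRCm38.p6) by gene ID. Probes of 1 symbol were averaged. The 14015 features (8726 named) with at least 3 values per group entered limma 3.58.1 (statmod 1.5.0, R 4.3.3): lmFit and eBayes over 8 arrays, terms for treatment and dye, two-sided, Benjamini-Hochberg, threshold 0.05. The fit was tested on simulated data, with 200 changed features among 11681. It called 36% of changes of size 1 on the log2 scale and 65% of those of size 2, with 7 false calls. Many true changes of these sizes would thus be missed. P-values measure only the spread between arrays, which may be technical, and the number of arrays limits the precision. The members, lists and rule for named genes were chosen with earlier results of these data known. The rule names all cathepsins and measured inhibitors, the 2 lowest and 2 highest means of each other list among genes with 8 values, and the 5 patterns most like Ctsh and Ctsl. Alternatives were dye sign, codes, centring, scale, dye term and label, filters, probe median, robust moderation, array weights, the replicate block and leaving out each array.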

Additional observations from a re-analysis of the deposited data

Results flagged for a closer look

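Each measured cathepsin and inhibitor with 4 values in a group was examined for an array that lies apart from the other 3. There were 25 such groups. The critical value is set for about 1 in 20 groups by chance, where groups are independent. These groups share arrays, and the members were chosen by such ratios, so the count is not read against that rate. The share over all features was not computed. The 5 groups flagged were all among nocodazole arrays. On nocodazole replicate 1, Ctsh was at 0.68 with the others between -0.80 and -0.64, and Ctsl was at 0.68 with the others between -0.84 and -0.64. Of the 333 features negative on the 7 other arrays, as Ctsh and Ctsl were, 304 were positive on nocodazole replicate 1. The change of sign on that array was thus not particular to these genes. On the same array Cstb was at 0.38 (others -0.19 to -0.12) and Ctsw at -1.92 (others -0.05 to 0.20). On nocodazole replicate 3, Ctsf was at -1.23 (others -0.02 to 0.18). Ctsz on nocodazole replicate 1 (0.74, others -0.63 to -0.37) had a gap of 0.815 of its range, just under the critical value.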

How the results depend on the processing

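The change and the dye term passed for 0 cathepsins under every alternative run. In limma with the Cy3 arrays turned, 3 of 5 had an unadjusted dye-term p under 0.05, as did 731 of 14015 features. In that setting the dye term sets Cy5 ratios against Cy3 ratios of reversed sign. It thus grows with the size of ratios that share a sign, which the rule used, so nothing is read from this count. With these arrays turned the change was -0.43 (SE 0.19) for Ctsb and 0.57 (SE 0.28) for Ctsd, and neither passed. Over all features the count for the change was 0 to 1 when an array was left out, with 1 without untreated replicate 1, and for the dye term 0 to 2, with 2 without that array and 1 with array weights. With the replicate block and the dye term 0 features were called for the change. Deviations from the group mean correlated between same-numbered arrays at 0.126, 0.0206, -0.0513 and 0.0944, in the table's signs. The numbers were therefore not taken as pairs. With the Cy3 arrays turned, 2 of 5 cathepsins had a negative mean with nocodazole and 2 untreated, against 4 and 4 in the table's signs, and the untreated means were 0.28 for Ctsl and 0.12 for Ctsz. The change of Ctsb was 0.059 with the replicate block and -0.40 to 0.093 with an array left out (above 0 without untreated replicate 2, 0.093, or nocodazole replicate 3, 0.024). Leaving out an array gave -0.16 to 0.57 for Ctsd (below 0 without untreated replicate 2), -0.0497 to 0.45 for Ctsh and -0.058 to 0.36 for Ctsl (both below 0 without nocodazole replicate 1), and 0.027 to 0.40 for Ctsz. Causes were not tested. Signal over background is unknown, and Ctsh, Ctsl and Ctsz rest on 1 probe each.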
